A study of Homo sapiens with 10 samples.

Results

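The BCL2 family holds the proteins that decide whether the outer membrane of the mitochondrion stays intact, and its transcripts were examined here in human embryonic stem cells. The 10 members described are the survival proteins BCL2, BCL2L1 and MCL1, the death effectors BAX, BAK1 and BOK, and the BH3-only proteins PMAIP1, BBC3, BCL2L11 and BIK. They were found among 55841 Ensembl gene identifiers by the symbol that belongs to each identifier, and all 10 members had 1 row each and passed the filter on low counts, which left 23552 genes. Bulk RNA sequencing had been made from a line that the labels call HES9 and the study's text calls WA09, kept in mTeSR1 medium on Matrigel without feeder cells. The 5 libraries of the general population came from unsorted cells, and the 5 libraries of the GCTM-2highCD9highEPCAMhigh population (HHH) came from cells sorted by flow cytometry for the highest levels of these 3 surface antigens. The labels give 2 batches, with general replicates 1 and 2 and HHH replicates 2 and 3 in batch 1, and replicates 1, 2 and 3 of both populations in batch 2. No genotype change or treatment is given for any library. The paper's methods describe blebbistatin given to cultures before dissociation to single cells, without naming these libraries. The design text of the deposit mentions protein kinase C inhibitors without tying them to a library. The general population still holds the cells that HHH was sorted from, and passage through the sorter cannot be told apart from the choice of cells. Nothing states that the libraries came from separate cultures, so p-values measure the spread between these libraries only.

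Survival members hold the effectors BAX and BAK1 in check at the mitochondrial outer membrane. BH3-only members are induced or activated by stress, occupy the groove of the survival members or act on the effectors themselves, and so set the effectors free to form pores through which cytochrome c leaves the mitochondrion and starts the caspases. Human pluripotent stem cells are known to lie close to the threshold of mitochondrial apoptosis, and much of the family is controlled after transcription, since MCL1 and NOXA (the product of PMAIP1) are short-lived proteins. The counts here measure transcripts alone, and in bulk samples fewer cells that express a gene cannot be told apart from less RNA per cell.

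The sequences before the start sites of BAX, BBC3 and PMAIP1 are shown because BAX and BBC3 were the effector and a BH3-only member that were lower in HHH, and PMAIP1 was the member with the highest positive difference. RefSeq's table for GRCh38.p14 held such windows for 8 of the 10 members, of 250 bases each. The deposited counts were made on another build, so the coordinates belong to these windows only. Each is written 5′ to 3′ on the strand of the gene and ends just before the start site, and capitals mark CACGTG, the canonical E-box, a palindrome that reads alike on both strands and is the letters bound by MYC with its partner MAX and by related factors.
BAX, chr19:48954625-48954874, plus strand: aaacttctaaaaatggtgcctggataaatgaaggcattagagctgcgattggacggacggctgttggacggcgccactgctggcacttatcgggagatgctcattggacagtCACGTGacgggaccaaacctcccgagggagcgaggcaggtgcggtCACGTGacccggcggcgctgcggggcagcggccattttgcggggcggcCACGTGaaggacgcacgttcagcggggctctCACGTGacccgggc
BBC3, chr19:47232668-47232917, minus strand: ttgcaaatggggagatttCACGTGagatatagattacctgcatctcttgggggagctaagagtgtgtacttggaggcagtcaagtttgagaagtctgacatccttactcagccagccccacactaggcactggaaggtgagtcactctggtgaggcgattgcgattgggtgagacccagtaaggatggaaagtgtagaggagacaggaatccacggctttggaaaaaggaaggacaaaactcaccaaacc
PMAIP1, chr18:59899746-59899995, plus strand: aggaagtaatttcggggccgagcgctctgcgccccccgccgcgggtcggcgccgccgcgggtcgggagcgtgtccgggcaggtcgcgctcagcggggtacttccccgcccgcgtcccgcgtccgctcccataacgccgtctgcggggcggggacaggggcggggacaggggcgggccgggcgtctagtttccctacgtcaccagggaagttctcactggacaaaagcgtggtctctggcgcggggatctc
The BAX window held 4 copies, whose first bases lie at -138, -93, -45 and -14 from the start site. The BBC3 window held 1 copy, at -232, and the PMAIP1 window none. The windows of BCL2, BCL2L1 (2 start sites), BAK1, BOK and BCL2L11 held none. Of 35116 windows in the table, 6.34% held the letters at least once and 5 windows, or 0.0142%, held them 4 times or more. The cut of 4 equals the count in the BAX window itself, so that share is a description and no test. The match is a description of letters and not of a bound site.

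Of the 10 members, 3 were lower in HHH and none was higher, at a Benjamini-Hochberg adjusted p under 0.05 in edgeR's quasi-likelihood test with batch as a term. These were BIK, BBC3 and BAX. The same threshold was passed by 5.83% of all 23552 tested genes, 3.89% being lower and 1.94% higher. This balance depended on the scaling, with 915 genes lower and 458 higher here, 1000 and 808 under correction for GC content, 1286 and 1242 under that correction with the replicate block, and 1231 and 50 on the deposited log2 values. Of the members, GC correction called 2 lower (BBC3 and BIK) and 1 higher (PMAIP1). BIK and BBC3 also differed by more than 1.5-fold, and 2.98% of all genes passed both thresholds. Among the survival members 0 of 3 passed, among the effectors 1 of 3 and among the BH3-only members 2 of 4. The median log2 fold change was 0.06 for the survival members, 0.17 for the effectors and -0.40 for the BH3-only members, beside 0.02 over all tested genes. With the replicate block these medians were -0.025, 0.08 and -0.37, beside 0.01 over all genes, so the sign for the survival members turned. At an unadjusted p under 0.05 the count was 6 of 10, with BCL2L1, BAK1 and PMAIP1 in addition, beside 20.9% of all genes. A block for the replicate number left the same 3 members called, beside 6.95% of all genes. In batch 1 only replicate 2 is shared by both populations. General replicate 1 and HHH replicate 3 of that batch thus add nothing to the difference fitted with this block. The former held the highest BAX and BBC3 values.

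**Figure D1:**
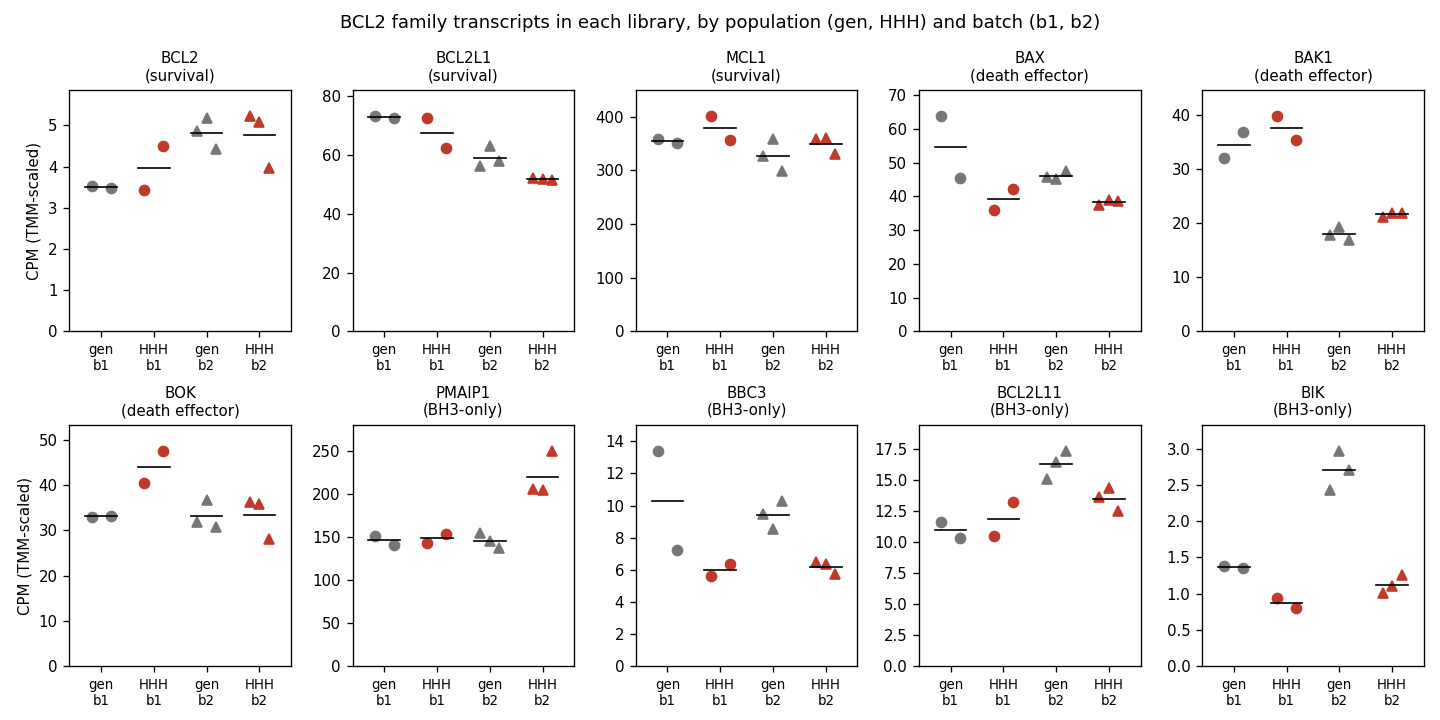
Level in CPM (a count relative to the TMM-adjusted total of its library, on linear axes from 0) of the 10 members in each library, with circles for batch 1, triangles for batch 2, grey for general (gen) and red for HHH, and a line at the mean of each population and batch. BAX, BBC3 and BIK lie below general in HHH in both batches, and PMAIP1 stands apart in the 3 HHH libraries of batch 2.

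The 10 libraries held 47242595 to 78503395 counts, so that 1 count stood for 0.0153 to 0.0229 CPM. Batch was the larger source of variation, with 94.1% of the first principal component (58.3% of the variance) explained by batch and 91.2% of the second (11.7%) by population. EPCAM, a sort antigen, was higher in HHH (log2 fold change 0.41, adjusted p = 0.00645 in edgeR), and CD9, the other antigen with a single gene, had a log2 fold change of 0.29 (adjusted p = 0.195). POU5F1, which marks undifferentiated cells, ran from 461 to 641 CPM over all libraries. Of the undifferentiated markers, NANOG was higher (0.44, adjusted p = 0.00572) and SOX2 lower (-0.26, adjusted p = 0.0375, and 0.0773 with the replicate block). Of 5 neural markers tested, SOX1, LHX5 and OTX2 were lower in HHH, and the 6 markers summed to 104 to 152 CPM in general and 39.7 to 59.9 in HHH. Most of each sum was OTX2 (means of 109 and 39.1 CPM), which the paper also lists among markers of the mouse post-implantation epiblast. FABP7 leaned the other way (0.23) without passing. The call of SOX1 rested on 5 to 33 counts per library and held in 2 of 10 fits with 1 library left out. The defining neural marker PAX6 stayed at 0.700 to 1.16 CPM, and NEUROG2 was at or under 0.0527 CPM in every library. The 7 mesendoderm markers summed to 0.766 to 1.48 CPM in general and 1.95 to 2.57 in HHH in batch 1. In batch 2 they went the other way, with 1.10 to 1.25 in general and 0.937 to 0.968 in HHH. Of 5 fibroblast markers COL1A1 was lower in HHH (-0.94, adjusted p = 0.00334), and they summed to 115 to 138 CPM in general and 77.9 to 119 in HHH, while DCN and LUM did not exceed 0.0858 CPM. Of 8 G2/M genes CDK1, TOP2A and AURKA were higher in HHH (summed levels 1927 to 2132 against 2048 to 2592 CPM, and AURKA not with the replicate block, adjusted p = 0.0527), and 0 of 8 S phase genes passed, with RRM2 (0.25) and MCM2 (-0.09) having the largest differences. Of 7 immediate early and stress genes EGR1 alone passed, lower in HHH (-1.19, adjusted p = 0.000288). The part of these differences in the values of the family was not tested.

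MCL1, the short-lived survival protein on which many dividing cells depend, had the highest count of the family. It measured 358 and 352 CPM in general and 401 and 357 in HHH in batch 1. Batch 2 gave 326, 358 and 299 CPM in general and 359, 360.5 and 330.1 in HHH. The ranges overlapped in both batches, and all 5 HHH libraries lay above the mean of general within their batch. HHH differed from general by 0.09 ± 0.07 on the log2 scale (SE), with an adjusted p of 0.496 in edgeR, so no difference beyond the spread between libraries was found.

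BCL2L1, whose main product BCL-XL guards the mitochondrion in many tissues, measured 73.3 and 72.6 CPM in general and 72.7 and 62.3 in HHH in batch 1. Batch 2 gave 56.2, 63.2 and 58.0 CPM in general and 52.3, 51.9 and 51.5 in HHH. The ranges lay apart in batch 2, with HHH lower, as they did for 36.2% of all tested genes, and overlapped in batch 1. On the log2 scale HHH differed by -0.16 ± 0.07 (adjusted p = 0.197), and -0.20 in batch 2 alone (adjusted p = 0.115). Reads were counted per gene, so the pro-survival and pro-apoptotic splice forms of BCL2L1 cannot be told apart.

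BCL2, the founding member, was the scarcest survival transcript. It measured 3.54 and 3.49 CPM in general and 3.43 and 4.51 in HHH in batch 1, and 4.86, 5.18 and 4.42 in general and 5.22, 5.08 and 3.96 in HHH in batch 2. The populations overlapped in both batches. A log2 fold change of 0.06 ± 0.12 was fitted (adjusted p = 0.828), and its sign turned with the replicate block (-0.03). The level of BCL2 moved more with batch than with population, with means of 3.74 CPM in batch 1 and 4.79 in batch 2.

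BAX, which moves to the mitochondrion and forms pores there, was the effector that was lower in HHH. It measured 63.8 and 45.5 CPM in general and 36.0 and 42.3 in HHH in batch 1. In batch 2 it measured 45.9, 45.1 and 47.6 CPM in general and 37.5, 39.1 and 38.6 in HHH. Every HHH library lay below every general library, and the highest value belonged to general batch 1 replicate 1. The log2 fold change was -0.35 ± 0.09 (adjusted p = 0.0354), a ratio of 0.783. The exact permutation test of population within batch gave p = 0.0167, the smallest that 120 arrangements allow. For BAX, BBC3 and BIK alike this value follows from ranges apart in both batches, so it adds nothing to them. The same test gave an unadjusted p of 0.0333 for BCL2L1, BAK1 and PMAIP1. Ranges that lay apart in both batches in 1 direction were found for 9.35% of all tested genes, with HHH lower for 5.42%. The call was near the threshold. It held when general batch 1 replicate 2, HHH batch 1 replicate 3 or HHH batch 2 replicate 3 was left out (3 of 10), and was lost without any other library, with an adjusted p up to 0.104 without HHH batch 1 replicate 2. Correction of each library for GC content, an alternative chosen after seeing the data that called 7.68% of all genes, also ended it (-0.27, adjusted p = 0.116, and -0.16, adjusted p = 0.170, with the replicate block as well).

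BAK1, the effector that resides in the outer membrane, leaned the other way without passing the threshold. It measured 32.0 and 36.8 CPM in general and 39.7 and 35.3 in HHH in batch 1. In batch 2 the general libraries measured 17.8, 19.2 and 16.9 CPM and the HHH libraries 21.2, 21.8 and 21.9. The populations lay apart in batch 2, with HHH higher, and overlapped in batch 1. Ranges lay apart in batch 2 for 36.2% of all tested genes. The fitted difference was 0.21 ± 0.07 on the log2 scale (adjusted p = 0.121), and 0.26 in batch 2 alone (adjusted p = 0.0565). It passed under GC correction and the replicate block together (adjusted p = 0.0271), which called 10.7% of all genes. The CPM ratio of BAK1 to BAX, both counted in the same library, was 0.501 and 0.809 in general and 1.10 and 0.834 in HHH in batch 1, and 0.355 to 0.425 in general and 0.558 to 0.566 in HHH in batch 2. The ratio was thus higher in HHH than in general in both batches, with no overlap, though 0.809 and 0.834 were close in batch 1. BAX alone already lay apart in both batches, and how often ratios of other genes do so was not counted.

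BOK, an effector that the survival members do not hold in check, measured 33.0 and 33.2 CPM in general and 40.5 and 47.5 in HHH in batch 1. Batch 2 gave 31.9, 36.8 and 30.7 CPM in general and 36.4, 35.9 and 28.1 in HHH. HHH was higher without overlap in batch 1, and the populations overlapped in batch 2. With 2 libraries against 2, ranges lie apart easily, and the share of all genes for batch 1 was not counted. Over both batches HHH differed by 0.17 ± 0.10 on the log2 scale (adjusted p = 0.358), with 0.40 in batch 1 and 0.01 in batch 2. The interaction of batch and population had an adjusted p of 0.240 for BOK. Its exons share 7.5% of their bases with BOK-AS1 on the opposite strand, and the use of strand in counting is not given in the sources used here.

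BIK, a BH3-only protein of the endoplasmic reticulum, showed the largest difference among the 10 members. It measured 1.38 and 1.36 CPM in general and 0.943 and 0.801 in HHH in batch 1. In batch 2 it measured 2.43, 2.97 and 2.70 CPM in general and 1.01, 1.11 and 1.26 in HHH. Every HHH library lay below every general library, although general in batch 1 lay much nearer to HHH than general in batch 2 did. Ranges lay apart in both batches, with HHH lower, for 5.42% of all tested genes. The log2 fold change was -1.04 ± 0.15 (adjusted p = 0.000891), a ratio of 0.486, and the exact permutation p was 0.0167, the smallest possible. These levels rested on 35 to 169 counts per library. The call held when any 1 of the 10 libraries was left out, with an adjusted p of 0.00581 or less. The difference was -0.65 in batch 1 and -1.27 in batch 2, and the interaction did not pass (adjusted p = 0.255).

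BBC3 encodes PUMA, a BH3-only protein that binds all survival members. It measured 13.4 and 7.23 CPM in general and 5.60 and 6.39 in HHH in batch 1. In batch 2 it measured 9.50, 8.53 and 10.3 CPM in general and 6.49, 6.35 and 5.76 in HHH. HHH lay below general without overlap in both batches, as it did for 5.42% of all tested genes. The highest value was again that of general batch 1 replicate 1. The log2 fold change was -0.68 ± 0.14 (adjusted p = 0.00969), a ratio of 0.625, and the exact permutation p was 0.0167. Without general batch 1 replicate 1 it was -0.50 (adjusted p = 0.0133), and the call held without any 1 of the 10 libraries, with an adjusted p of 0.0336 or less. Under GC correction it was -0.65 (adjusted p = 0.0373), and -0.39 with the replicate block as well (adjusted p = 0.0279). BBC3 had the highest GC content of the members, 69.7% in its longest transcript.

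PMAIP1 encodes NOXA, a BH3-only protein that binds MCL1 and promotes its degradation. It measured 151 and 141 CPM in general and 142 and 154 in HHH in batch 1, where the populations overlapped. In batch 2 it measured 154, 145 and 137 CPM in general and 205, 204 and 249 in HHH. The 7 libraries outside HHH of batch 2 thus ran from 137 to 154 CPM, and the 3 HHH libraries of batch 2 stood above them. Within batch 2, ranges lay apart for 36.2% of all tested genes, and 13.2% were called there. The log2 fold change was 0.36 ± 0.11 over both batches (adjusted p = 0.0613), 0.01 in batch 1 (adjusted p = 0.976) and 0.59 ± 0.10 in batch 2 (adjusted p = 0.00226), where it rose 1.502-fold. The interaction, which tests whether the batches differ, had an adjusted p of 0.0968. With both batches the gene passed in DESeq2 (adjusted p = 0.0240, with 8.42% of all genes called), without a filter on low counts (0.00134, with 5.46% called) and under GC correction (0.0221). It also passed when general batch 1 replicate 1 (0.0325), HHH batch 1 replicate 2 (0.0336) or HHH batch 1 replicate 3 (0.0367) was left out. With the replicate block the difference was 0.45 (adjusted p = 0.05004, just above the threshold).

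BCL2L11 encodes BIM, a BH3-only protein that binds all survival members and acts on the effectors. It measured 11.6 and 10.3 CPM in general and 10.5 and 13.2 in HHH in batch 1. Batch 2 gave 15.04, 16.5 and 17.3 CPM in general and 13.6, 14.4 and 12.5 in HHH. HHH was lower without overlap in batch 2, where ranges lay apart for 36.2% of all tested genes, and overlapped with general in batch 1. Its log2 fold change was -0.12 ± 0.10 (adjusted p = 0.525), with 0.10 in batch 1 and -0.28 in batch 2 (adjusted p = 0.0686). The exons share 10.8% of their bases with a noncoding gene on the opposite strand, MIR4435-2HG.

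**Figure D2:**
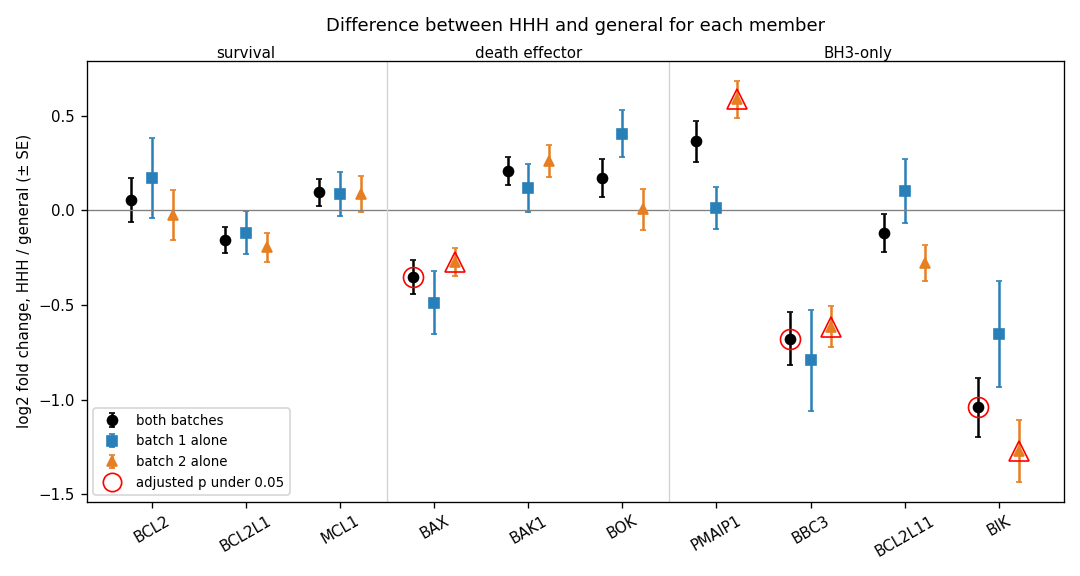
Log2 fold change of HHH over general (± SE) for the 10 members, from both batches together (black circles), batch 1 alone (blue squares) and batch 2 alone (orange triangles), with a red ring where the adjusted p was under 0.05. BAX, BBC3 and BIK are ringed in the fit of both batches and in batch 2, PMAIP1 in batch 2, and no member in batch 1.

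Fitted alone, batch 1 gave no call among the 10 members in edgeR, beside 0.573% of all genes. At an unadjusted p under 0.05 the count was 4, with BAX, BBC3 and BIK lower and BOK higher, beside 12.5% of all genes. Batch 2 gave 4 calls, BAX (-0.27, adjusted p = 0.0330), BBC3 (-0.61, adjusted p = 0.00324) and BIK (-1.27, adjusted p = 0.000302) lower and PMAIP1 higher, beside 13.2% of all genes (8.05% lower and 5.13% higher), and the same 4 with the replicate block, beside 15.5% of all genes. The interaction gave 0 of 10, beside 0.777% of all genes, and 4 at an unadjusted p under 0.05 (BOK, PMAIP1, BCL2L11 and BIK), beside 18.9%. BAX, BBC3 and BIK kept their direction in both batches. A difference between the batches was not shown for any member.

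Levels of different members were compared per kilobase of the gene length that the deposited counts and log2 RPKM values imply together, in which 1 common factor is unknown that leaves order and ratios as they are. MCL1 stood first, with 79.3 ± 6.04 CPM per kb in general and 84.6 ± 5.95 in HHH (SD, n = 5 each), and PMAIP1 second, with 64.3 ± 3.16 and 84.3 ± 19.2. BCL2L1 (19.3 in general and 17.3 in HHH), BAX (18.9 and 14.8), BOK (12.3 and 14.0) and BAK1 (10.7 and 12.2) followed. BBC3 (4.61 and 2.88), BCL2L11 (2.68 and 2.43), BIK (2.25 and 1.06) and BCL2 (0.554 and 0.572) came last. Some neighbours in this order were not separated in every library. MCL1 exceeded PMAIP1 in 7 of 10 libraries, BCL2L1 exceeded BAX in 7, BAX exceeded BOK in 8 and BOK exceeded BAK1 in 7, while each later member exceeded the next in 10 of 10. Scaling by coding length exchanged MCL1 with PMAIP1, BAX with BOK, BBC3 with BCL2L11 and BIK with BCL2.

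**Figure D3:**
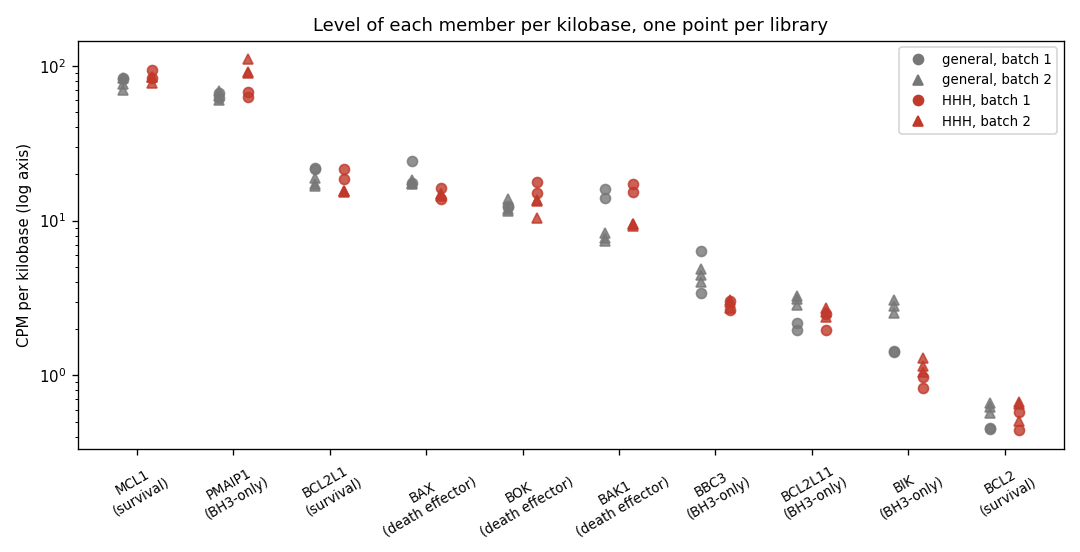
CPM per kilobase of each member on a log axis, with 1 point per library, grey for general, red for HHH, circles for batch 1 and triangles for batch 2, ordered by level. MCL1 and PMAIP1 stand well above the other 8 members, and BCL2 stands lowest.

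The 3 classes were then summed per kilobase in each library, as a description with no test. MCL1 made up 78.9% to 84.0% of the survival sum and PMAIP1 84.7% to 94.5% of the BH3-only sum, so each sum follows mainly 1 transcript. The survival sum was 94.9 ± 7.79 CPM per kb in general and 98.0 ± 4.19 in HHH in batch 2 (SD, n = 3 each). The effector sum was 37.8 ± 1.30 in general and 36.5 ± 1.60 in HHH, with BAX below and BAK1 above general in each HHH library of batch 2. The BH3-only sum was 71.3 to 78.0 in the general libraries of batch 2 and 96.9 to 117 in the HHH libraries. In batch 1 it was 69.1 and 76.7 in general and 68.5 and 74.2 in HHH.

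The ratio of the survival sum to the BH3-only sum was 1.20 to 1.39 in general and 0.799 to 1.04 in HHH in batch 2, without overlap. Its size depends on the length scaling. In plain CPM the sums in HHH of batch 2 were 386 to 417 for survival and 226 to 269 for BH3-only. How often ratios of other genes lie apart was not counted. In batch 1 it was 1.38 and 1.51 in general and 1.69 and 1.38 in HHH, which overlapped. The ratio of PMAIP1 to MCL1, a pair whose products bind each other, was 0.756 to 0.892 over the 5 general libraries. It was 0.670 and 0.813 in HHH of batch 1 and 1.07 to 1.43 in HHH of batch 2. The ratio of the survival sum to the effector sum was 2.09 and 2.28 in general and 2.52 and 2.09 in HHH in batch 1, where the populations overlapped. In batch 2 it was 2.38 to 2.63 in general and 2.66 to 2.70 in HHH, without overlap. While 3 of the 4 BH3-only members were lower in HHH by the sign of the log2 fold change, the BH3-only sum was higher in batch 2, because the fourth, PMAIP1, was the most abundant.

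**Figure D4:**
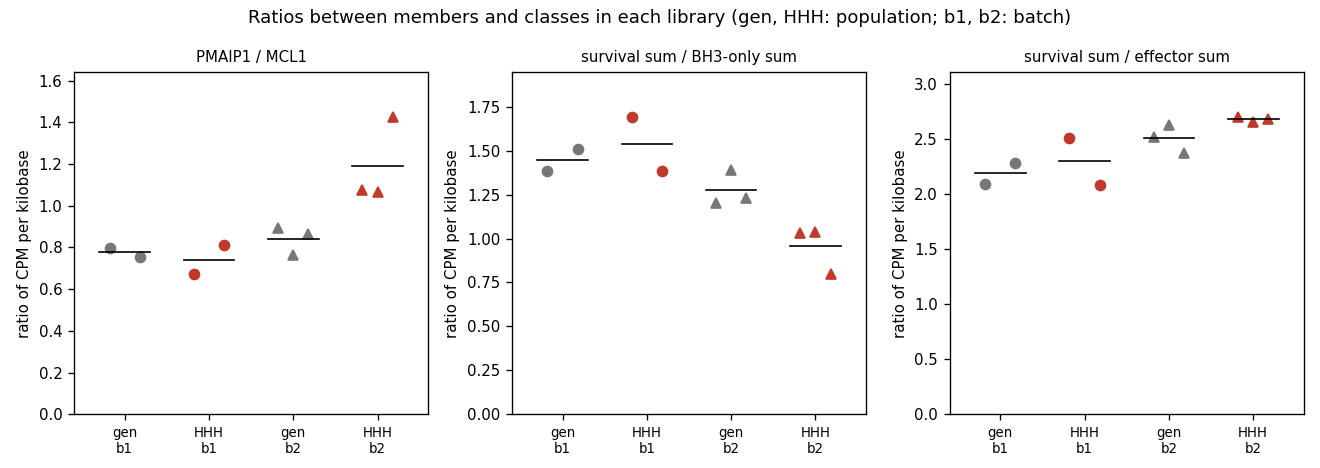
Ratios of CPM per kilobase in each library, for PMAIP1 over MCL1, the survival sum over the BH3-only sum and the survival sum over the effector sum, by population and batch, with a line at the mean. HHH of batch 2 stands apart from general in all 3 panels, above it for PMAIP1 over MCL1 and for survival over effector, where the gap is narrow, and below it for survival over BH3-only, and HHH of batch 1 overlaps with general in each panel.

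Other members of the family were followed from a list of relatives. BCL2L2, a survival relative, had a log2 fold change of -0.05 (adjusted p = 0.791), and BCL2A1 and BCL2L10 did not exceed 0.0176 CPM in any library. Of 4 further BH3-only members, BID was higher and BMF lower in HHH. BID, which links death receptors to the mitochondrion once caspase 8 has cleaved it, ran from 20.6 to 39.2 CPM in general and 24.3 to 48.6 in HHH, with HHH above general without overlap within each batch (0.33 ± 0.09, adjusted p = 0.0354). BMF, which is released from the cytoskeleton when cells lose attachment, ran from 33.2 to 39.7 CPM in general and 24.9 to 34.5 in HHH, with overlap in batch 1 (-0.34 ± 0.09, adjusted p = 0.0375). Ranges apart in both batches in 1 direction, as for BID, were found for 9.35% of all tested genes. When each library was left out in turn, the call of BID held in 3 of 10 fits and that of BMF in 2. BAD (0.11, adjusted p = 0.546) and HRK (-0.44, adjusted p = 0.162) did not pass. Neither BNIP3 (0.18) nor BNIP3L (-0.06), which serve removal of mitochondria, passed, nor did any of 3 tested homologues, where BCL2L14 (0.18) and BCL2L12 (0.17) differed most.

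Downstream of the mitochondrion, 0 of 7 genes of the apoptosome and the caspases passed in edgeR. CASP6, an executioner caspase, had a log2 fold change of 0.36 (adjusted p = 0.0534) and CYCS, which encodes cytochrome c, 0.22 (adjusted p = 0.283). In batch 2 alone both were called higher, while CYCS was at -0.15 in batch 1 (adjusted p = 0.645), with HHH below general there, and at 0.46 in batch 2 (adjusted p = 0.0133). Of 6 tested inhibitors of apoptosis and their antagonists none passed, and BIRC5 (0.21, adjusted p = 0.185), which also serves mitosis, and DIABLO (0.18, adjusted p = 0.218), which antagonises the inhibitors, differed most. Of 9 death receptor genes 1 was higher and 2 were lower. FAS, a death receptor, ran from 1.61 to 4.14 CPM in general and 1.24 to 2.00 in HHH (-0.87 ± 0.21, adjusted p = 0.0243), and its call held in 6 of 10 fits with 1 library left out. TRADD, an adaptor of the TNF receptor, was lower by the fit (-1.54, adjusted p = 0.00614) on 4 to 30 counts per library. FADD, the adaptor that recruits caspase 8 to FAS, was higher (0.32 ± 0.07, adjusted p = 0.0162), and was not called with the replicate block (adjusted p = 0.0551). In GENCODE 44, 59.2% of the exonic bases of FADD are shared with a gene on the opposite strand, so reads of the pair may not be told apart.

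Among 8 factors that act on transcription of the members or restrain those that do, MYC alone passed. It ran from 27.1 to 35.0 CPM in general and 37.9 to 49.5 in HHH, so that every HHH library lay above every general library (0.45 ± 0.08, adjusted p = 0.00261). MDM2, a ubiquitin ligase, did not pass (-0.13, adjusted p = 0.463). The highest MDM2 level, 280.4 CPM, was that of general batch 1 replicate 1, the library with the highest BAX and BBC3. Among 8 genes for the stability and docking of the members, USP9X alone passed. USP9X, which removes ubiquitin from MCL1, ran from 665 to 1719 CPM in general and 479 to 817 in HHH, and HHH was lower without overlap within each batch (-0.79 ± 0.11, adjusted p = 0.000534). Ranges apart in both batches in 1 direction, as for MYC and USP9X, were found for 9.35% of all tested genes. The median log2 fold changes of the lists were -0.14 for the death receptor genes, 0.04 for the apoptosome and caspases, 0.06 for the inhibitors, 0.00 for the transcription factors and 0.11 for stability and docking, beside 0.02 for all genes.

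**Figure D5:**
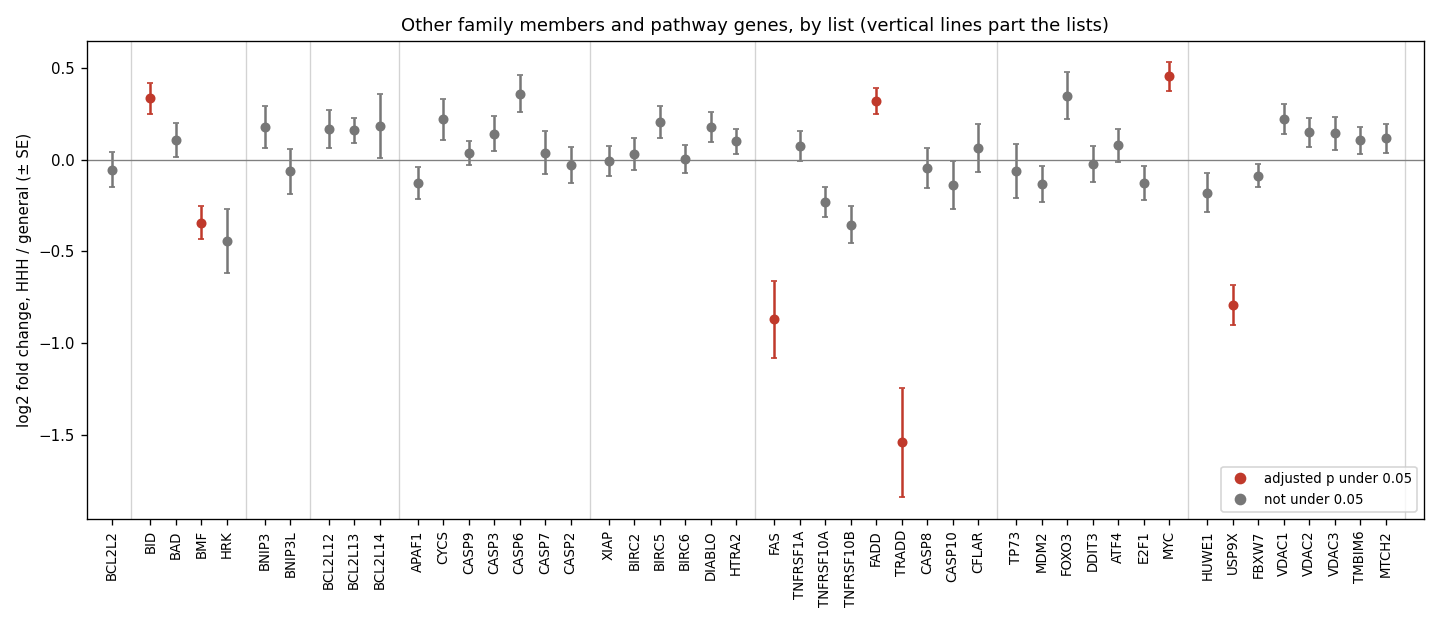
Log2 fold change of HHH over general (± SE) for tested relatives of the family and genes of the apoptosis pathway, grouped by list, with red for an adjusted p under 0.05. BID, FADD and MYC are red above 0, and BMF, FAS, TRADD and USP9X are red below 0.

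For each called member, the 3 most similar patterns among protein-coding genes that averaged 5 CPM or more were found over the 10 libraries, by Pearson's r of log2 CPM centred within each batch. The libraries share their population difference and depth, so the values are a description. BAX was most like INPP5D (0.983), DDB2 (0.982) and BBC3 (0.966). BBC3 was most like TNFRSF10B (0.984), PHLDA3 (0.975) and BAX. Without general batch 1 replicate 1, in which BAX and BBC3 were highest, the r of BAX with BBC3 was 0.922. BIK was most like PKDCC (0.990), CRB2 (0.989) and C1orf21 (0.988), and BAX and BBC3 were not among these. The log2 fold changes of these 3 genes were -1.71 for PKDCC, -1.46 for CRB2 and -1.12 for C1orf21. They were chosen for their likeness to BIK, so a lower level in HHH follows from the choice.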

How the data were processed

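RNA of 10 libraries was sequenced after TruSeq preparation. The authors deposited whole counts per Ensembl gene without normalization, and log2 RPKM values, treated here as a score because a batch term had been subtracted before deposit. The submitters' processing notes name CASAVA 1.8.2, R 3.2.2, limma 3.26.9 and GRCh37. The aligner and the counting tool are not given in the sources used here. Population, batch and replicate came from the titles. The members and gene lists were chosen with earlier results of these data known. Symbols came from GENCODE 44 by identifier, and 88.5% of identifiers matched.

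Genes were kept by filterByExpr (minimum count 10), scaled by TMM and tested two-sided with edgeR 4.0.16 (quasi-likelihood, R 4.3.3) and a batch term, and p-values were adjusted over all 23552 genes by the Benjamini-Hochberg method. SE was the size of the log2 fold change divided by the square root of F. Each batch alone and the interaction were tested likewise. The exact permutation exchanged population labels within batches. The code was tested on simulated data. At 47242595 to 78503395 counts per library, intervals of counting error are narrow for genes with many counts beside the spread between libraries (common biological coefficient of variation 0.128). They are not narrow for genes with few counts, such as BIK (35 to 169 per library), TRADD (4 to 30) and SOX1 (5 to 33). Named genes were all members, list genes that passed or else the 2 with the largest difference, and the 3 genes most like each called member. Genes named beyond this rule (EPCAM, CD9, POU5F1, PAX6, NEUROG2, FABP7, DCN, LUM, BAD, HRK, MDM2, BCL2A1 and BCL2L10) were named after their values were seen. A gene of the lists is not reported here, though it stays in its list's count and median.

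Same-numbered libraries deviated together in batch 2 (r = 0.239, 0.143 and 0.113), which was taken as pairing. Over genes of at least 5 CPM the last was only 0.0349. Batch 1 cannot show pairing, because with 2 libraries of each population every correlation has the same size. There r was 0.113 for the 1 same-numbered pair and also for general replicate 1 with HHH replicate 3. The labels do not say what a number shares. Alternatives tried were the fit without batch, a replicate block, different scalings and filters, DESeq2 1.42.0, limma 3.58.1 with voom or on the deposited values, small RNAs left out, other thresholds and each library left out. Removal of a GC trend and centring of the deposited values were added after the data had been seen.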

Additional observations from a re-analysis of the deposited data

Results flagged for a closer look

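BAX in general batch 1 replicate 1, at 63.8 CPM, lay far above the other 4 general libraries. The gap to its nearest neighbour was 0.868 of the whole range, over Dixon's critical value of 0.71 for 5 libraries. It was 1 of 20 groups of 5 examined, and chance gives about 1 in 20. Without this library BAX was at -0.25 on the log2 scale (adjusted p = 0.0611 in edgeR), and the cause was not tested.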

How the results depend on the processing

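The limits are the small number of libraries, the 2 batches and, for BIK, TRADD and SOX1, low counts. The 1373 called genes became 168 without the batch term, 2423 without a filter on low counts, 132 when tested against a 1.5-fold change, 616 at an adjusted p under 0.01, 897 on the deposited log2 values centred on library medians, 1636 with the replicate block, 2528 with the GC trend removed and the replicate block, and 808 to 2347 when 1 library was left out (808 without HHH batch 2 replicate 2, 831 without HHH batch 2 replicate 1, 841 without general batch 2 replicate 3, 896 without general batch 2 replicate 1 and 2347 without HHH batch 1 replicate 3). The 3 called members became 0 without the batch term (lowest adjusted p 0.0849, for BBC3), 0 against a 1.5-fold change and 1 on the centred deposited values, and 2 to 4 when 1 library was left out. The cause was not tested. BIK and BBC3 held without any 1 of the 10 libraries. The replicate block changed no call among the members. It ended those of FADD, SOX2 and AURKA among the named list genes. BCL2 turned to -0.025 with the replicate block, -0.034 with the GC trend removed as well and -0.090 on the deposited values, and ran from -0.021 (without HHH batch 1 replicate 3) to 0.129 (without HHH batch 2 replicate 3) with 1 library left out. MCL1 turned to -0.043 on the deposited values. The other 8 members kept their direction under all alternatives run for them. Fits of each batch alone were not among these alternatives, and there BCL2L11 leaned up in batch 1 and down in batch 2.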
